A study of Homo sapiens with 1 sample.

Results

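The members were the 8 mature microRNAs (miRNAs) of the miR-10 and miR-196 families that are encoded within the HOX gene clusters. They are hsa-miR-10a-5p, hsa-miR-10a-3p, hsa-miR-10b-5p, hsa-miR-10b-3p, hsa-miR-196a-5p, hsa-miR-196a-3p, hsa-miR-196b-5p and hsa-miR-196b-3p, and they were chosen by name, not by signal, from the 2549 human miRNAs of the array. The sample was RNA of DLD-1 cells, a long-established line from a human colorectal carcinoma, and the cells had been given si-NC, a negative control siRNA. It was hybridised to 1 single-colour Agilent array. The study asked how miRNA levels respond to loss of circLONP2, a circular RNA of the LONP2 gene, by a circLONP2-specific siRNA. Samples with that siRNA were not analysed here, so no groups were compared and no test was run. The values come from 1 array of 1 cell line without biological replicates, so the errors below are technical in each case.

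HOX genes encode homeodomain transcription factors that set position along the body axis, and they lie in the HOXA, HOXB, HOXC and HOXD clusters. The miR-10 and miR-196 hairpins lie within these clusters, and miR-196 is known for cutting the HOXB8 message, which it matches almost perfectly. An miRNA hairpin is cut into a short duplex, from which an Argonaute protein keeps mainly one strand, the guide, and sheds the other, the passenger. In both families the 5p arm is known as the guide, and its seed, bases 2 to 8, pairs with target messages. miR-10b is best known from work on invasion of breast carcinoma, and miR-196 is also studied as a HOX-linked miRNA of digestive tumours.

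Mature sequences of 7 of the 8 members, all but miR-10b-5p, were matched in RefSeq. They are shown because the seed defines which arms can share targets, and because near-identical arms can share probes on an array. Capitals mark the seed.
miR-10a-5p: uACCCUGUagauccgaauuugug
miR-10a-3p: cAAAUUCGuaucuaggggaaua
miR-10b-3p: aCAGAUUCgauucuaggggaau
miR-196a-5p: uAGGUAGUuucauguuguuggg
miR-196a-3p: cGGCAACAagaaacugccugag
miR-196b-5p: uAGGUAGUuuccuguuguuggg
miR-196b-3p: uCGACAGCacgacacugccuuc

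miR-196a-5p and miR-196b-5p had the same seed, and no other miRNA among the 2248 array miRNAs with a RefSeq sequence carried it. Both are 22 bases long and differ by the single substitution A12C, counted from the 5′ end with the base of miR-196a-5p first. None of the other matched miRNAs had the seed of miR-10a-5p, and the seeds of miR-10a-5p and miR-10b-5p were not compared here. The 3p arms diverged more. miR-10a-3p and miR-10b-3p had different seeds and shared a run of 11 bases, UCUAGGGGAAU, which begins at base 11 of miR-10a-3p and at base 12 of miR-10b-3p. miR-196a-3p and miR-196b-3p shared a run of at most 7 bases, ACUGCCU.

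The hairpins are printed below with the mature arms in capitals, since arm balance is a comparison of the capital runs within one hairpin. Their positions are those of RefSeq on GRCh38.p14, and the array was designed on hg19. MIR10A lies at chr17:48579838-48579947 on the minus strand, inside the span of HOXB3, with HOXB4 and HOXB5 as its coding neighbours. MIR196A1 lies at chr17:48632490-48632559 on the minus strand, inside the span of HOXB-AS4, between HOXB9 and PRAC2. MIR196A2 lies at chr12:53991738-53991847 on the plus strand, between HOXC10 and HOXC9. MIR196B lies at chr7:27169480-27169563 on the minus strand, inside the spans of HOXA10-AS and of the HOXA10-HOXA9 readthrough gene, between HOXA9 and HOXA10. MIR10B lies in the HOXD cluster between HOXD8 and HOXD4. Only gene spans were read, so exons and introns were not told apart.
MIR10A: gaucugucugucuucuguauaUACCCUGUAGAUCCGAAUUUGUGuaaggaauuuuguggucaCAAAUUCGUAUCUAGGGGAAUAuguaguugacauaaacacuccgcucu
MIR196A1: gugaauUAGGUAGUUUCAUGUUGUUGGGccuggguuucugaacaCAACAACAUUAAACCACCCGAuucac
MIR196A2: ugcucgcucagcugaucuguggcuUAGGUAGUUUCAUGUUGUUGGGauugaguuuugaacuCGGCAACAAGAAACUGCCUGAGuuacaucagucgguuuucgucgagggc
MIR196B: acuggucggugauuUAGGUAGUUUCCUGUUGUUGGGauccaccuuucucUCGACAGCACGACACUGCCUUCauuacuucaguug

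miR-196a-5p is thus made from both MIR196A1 and MIR196A2 with one and the same sequence, and the array cannot tell the HOXB source from the HOXC source. The 3p arms of these hairpins differ, and the miR-196a-3p measured here is that of MIR196A2. The 3p arm of MIR196A1 was not analysed here.

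All 5p arms of the members were detected and bright, and the 3p arms ranged from bright to not detected. By the flag of the scanner software, 7 of 8 members were detected, beside 44.4% of all 2549 miRNAs, and the one not detected was miR-196a-3p. Each member had 20 spots, laid out as 10 spots for each of 2 probes or, for miR-10a-3p and miR-196a-3p, 5 spots for each of 4 probes. When at least 50% of the spots of 1 probe had to be well above background, 7 of 8 members were called, beside 37.9% of all miRNAs. When the median spot had to exceed 16.1, which is the background-subtracted intensity at the 99th percentile of negative controls, 6 of 8 members were called, beside 31% of all miRNAs. When the 50% rule had to hold for every probe, 6 of 8 were called, beside 29.4%. Under both of these last rules the members lost were miR-196a-3p and miR-196b-3p.

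The total gene signal is a scaled sum, in intensity units, over the probes that the software counts as measured. Its error comes from the error model of the software. It came to about 0.0183 times the summed spot signal of these probes, so it is not on the scale of single spots. Probes differ in how strongly they bind, so different miRNAs are compared below by signal, not by amount of RNA. A signal of 1000 or more was reached by 5 of 8 members, beside 2.39% of all miRNAs, and these 5 were the 4 5p arms and miR-10a-3p. The 7 detected members together held 8.94% of the summed signal of the 1133 detected miRNAs, and miR-10a-5p and miR-10b-5p alone held 8.02%.

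hsa-miR-10a-5p, the guide arm of the HOXB hairpin, was the brightest member. Its 20 spots ran from 62889 to 85953 with a median of 70696, its total gene signal was 26585 ± 1894, and it ranked 3 among 1133 detected miRNAs. All its spots were well above background and none was saturated, the brightest reaching 11.1% of the saturation value. hsa-miR-10b-5p, the guide arm of the HOXD hairpin, ranked 9. Its spots ran from 27780 to 39359 with a median of 31850, and its total gene signal was 12222 ± 872. One of its 20 spots was called an outlier by the software. It is counted in the range and median here but not in the total gene signal or the probe means, and it was the only outlier among the 160 spots of the members. The spots of miR-10a-5p and miR-10b-5p did not overlap.

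The guide arms of miR-196 formed a second, lower level. hsa-miR-196b-5p, from the HOXA cluster, had spots from 3588 to 5695 with a median of 4479, a total gene signal of 1683 ± 121 and rank 49. hsa-miR-196a-5p, from the HOXB and HOXC clusters, had spots from 2675 to 5206 with a median of 3673, a total gene signal of 1390 ± 102 and rank 55. Their spot ranges overlapped.

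Of the 3p arms, hsa-miR-10a-3p alone reached the level of the miR-196 guides. Its 20 spots ran from 662 to 6121 with a median of 4206, and its total gene signal of 1376 ± 79.1 gave rank 56, next to miR-196a-5p. hsa-miR-10b-3p lay near the middle of the detected miRNAs, at rank 557. Its spots ran from 19.98 to 48.6 with a median of 37.1, every one was well above background, and its total gene signal was 13.0 ± 1.17. The highest of 1000 negative control spots reached 45.4, above that median, so the level of miR-10b-3p is less firm than its error.

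The 3p arms of miR-196 were at the edge of detection or under it. hsa-miR-196b-3p had spots from 0.790 to 30.3, a total gene signal of 4.91 ± 0.686 and rank 855. Its call rested on 1 probe: that probe had 10 of 10 spots well above background and a mean of 26.9 ± 2.11 (SD, n = 10 spots), and the other had 0 of 10 and a mean of 2.96 ± 1.48 (SD, n = 10 spots). hsa-miR-196a-3p had 0 of 20 spots well above background, with spots from -3.37 to 8.87 and a median of -0.81. Negative control spots had a median of 0.0894 and a 99th percentile of 16.1, so all spots of miR-196a-3p lay under that percentile.

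**Figure D1:**
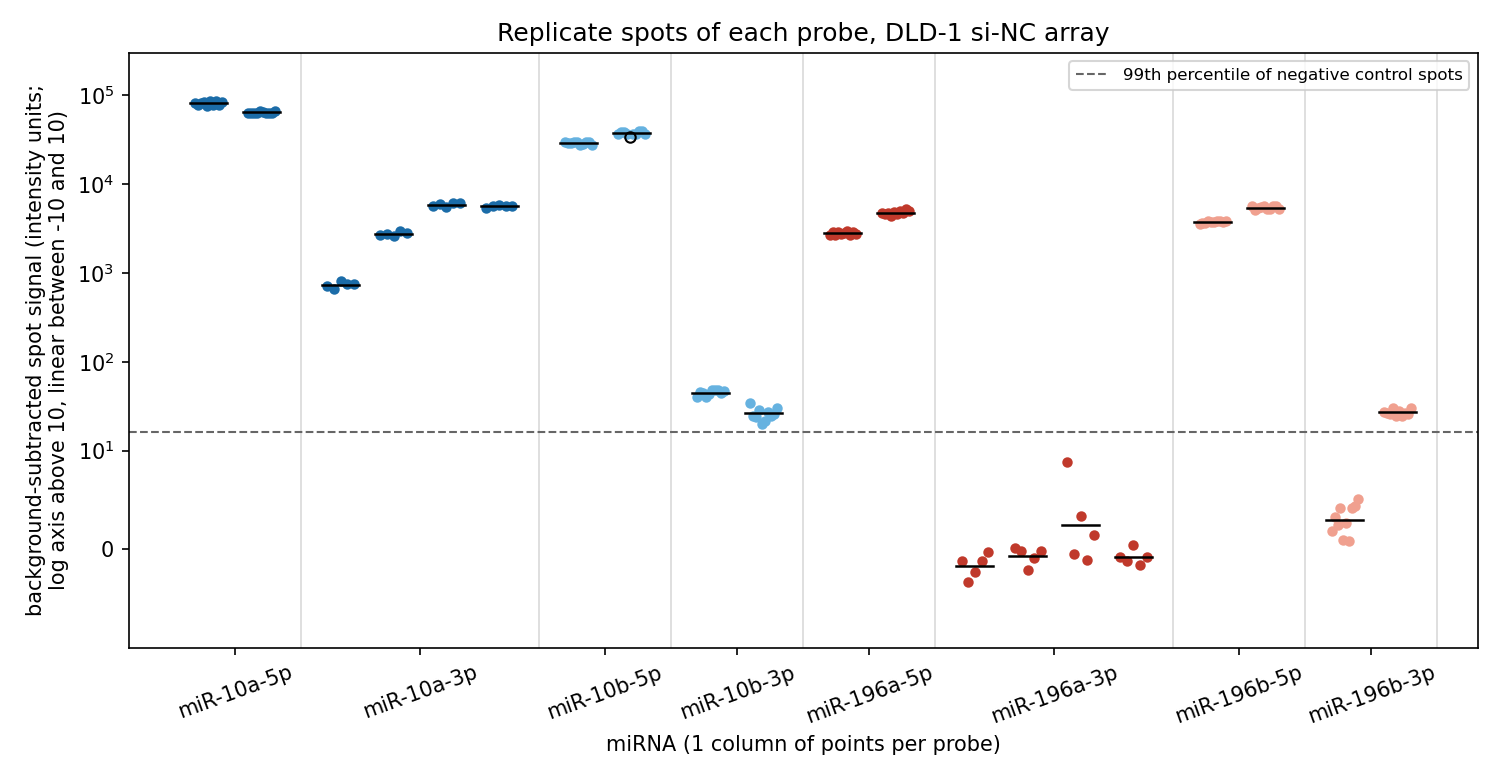
Background-subtracted intensity of each spot of the 8 members, with 1 column of points per probe, bars at the probe mean, an open circle for the outlier spot and a dashed line at the 99th percentile of 1000 negative control spots (16.1). The vertical axis is logarithmic above 10 and linear below. All spots of the 5p arms sit at 2675 or more, miR-10a-3p spreads over its 4 probes, and only 1 of the probes of miR-196b-3p lies above the dashed line.

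The deposited log2 values, quantile normalized by the authors, kept the same order of the detected members. They were 14.25 for miR-10a-5p, 13.25 for miR-10b-5p, 10.44 for miR-196b-5p, 10.09 for miR-196a-5p, 10.07 for miR-10a-3p and 3.80 for miR-10b-3p. miR-196a-3p was at the lowest value of that table, 2.32, which is log2 of 5. miR-196b-3p, at 2.324, held the next lowest value, which detected miRNAs with a signal under 5 share, so its level is only bounded in that table.

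Measured by the errors, the order of signals was not clear between the miR-196 guides, nor between miR-196a-5p and miR-10a-3p. It was clear between the miR-10 guides. Binding of miR-10a-5p to probes of miR-10b-5p, or the reverse, was not tested, so this is an order of signals only. miR-10a-5p exceeded miR-10b-5p by 1.12 ± 0.15 on the log2 scale, which is 2.18-fold and 7.71 times the propagated error. miR-196b-5p exceeded miR-196a-5p by 1.21-fold, and the log2 difference of miR-196a-5p minus miR-196b-5p, -0.28 ± 0.15, was 1.86 times its error. The signals of miR-196a-5p and miR-10a-3p, 1390 ± 102 and 1376 ± 79.1, differed by less than either error.

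**Figure D2:**
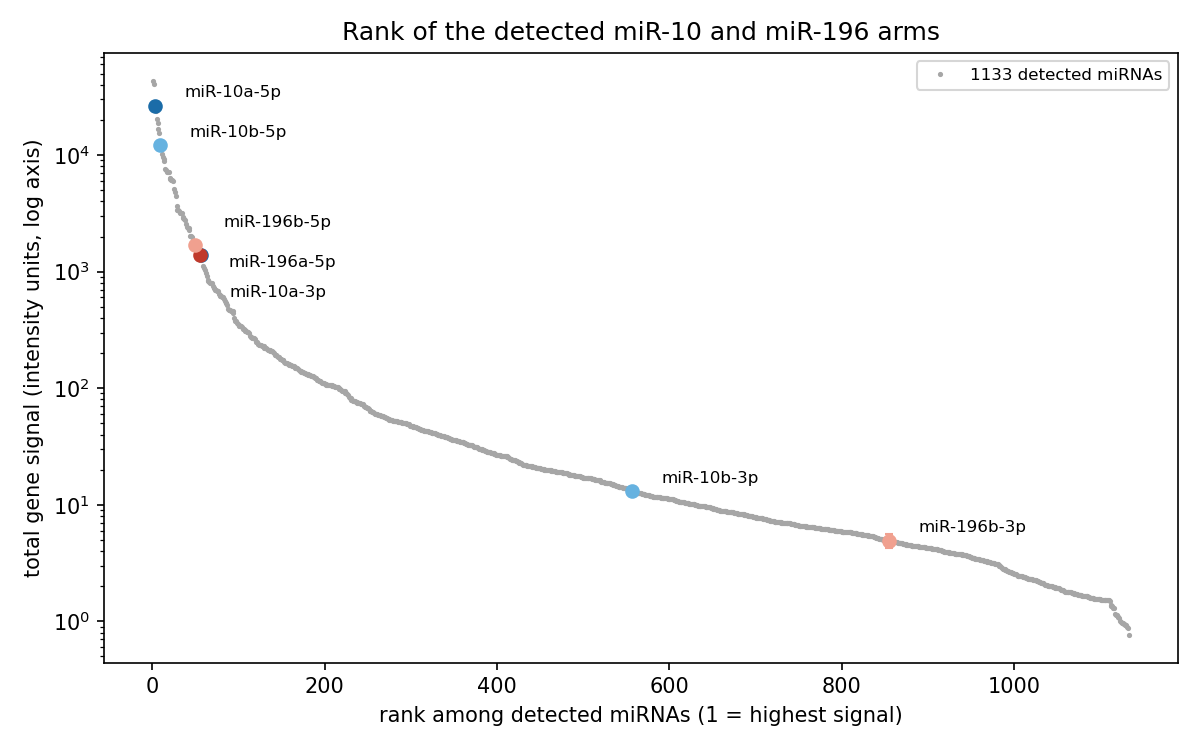
Total gene signal (intensity units, log axis) against rank for the 1133 detected miRNAs in grey, with the 7 detected members in colour and the error of the software as bars. miR-10a-5p and miR-10b-5p stand at ranks 3 and 9, miR-196b-5p, miR-196a-5p and miR-10a-3p at ranks 49, 55 and 56, where the last points lie on top of each other, and miR-10b-3p and miR-196b-3p at ranks 557 and 855.

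Arm balance, the log2 total gene signal of the 5p arm minus that of the 3p arm, differed widely between the miR-10 hairpins. In miR-10a the 5p arm exceeded the 3p arm by 4.27 ± 0.13 (19.3-fold), and in miR-10b by 9.88 ± 0.17 (940-fold). With normexp background correction, which raises dim signals most, these log2 differences were 4.62 and 8.46. The difference between these balances was 5.60 ± 0.21 on the log2 scale. The 5p signals of the pair lay 2.18-fold apart, and the 3p signals lay 106-fold apart, with a log2 difference of 6.73 ± 0.15 in favour of miR-10a-3p, which was 5.00 with normexp. Both arms of miR-10a were thus brighter than those of miR-10b, the 3p arm by far more than the 5p arm. The size of this difference varied with the background correction and with the probes of miR-10a-3p, as described further on, and the part of probe binding in it was not tested.

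In miR-196b the log2 difference was 8.42 ± 0.23 (343-fold) with the 3p arm at its total gene signal, and 5.996 with normexp. That 3p signal came from 1 of 2 probes and failed 2 of the 4 detection rules, so the level of miR-196b-3p, and with it this fold, is not well fixed. In miR-196a the 3p arm was not detected, so its total gene signal allowed only a bound. For this bound all 20 spots of miR-196a-3p were set to 11.7, the dimmest probe mean well above background on the array. Its total gene signal would then have been 4.28, and the 5p arm was at least 325-fold above that (8.34 on the log2 scale). The 5p signal pools MIR196A1 and MIR196A2, and the 3p arm is that of MIR196A2 only. This bound is thus between the measured arms, and not for any single hairpin. With normexp the log2 difference was 5.998, so the bound holds only for the main background correction. For miR-196b, and for miR-196a with its pooled 5p signal, the 5p signal thus exceeded the measured 3p signal by more than in miR-10a. Their order against miR-10b was not settled.

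Across the array, 232 of 810 hairpins with both arms named had both arms detected, and the 5p signal was the higher one in 53.9% of them. All 3 member hairpins among these had the higher signal in the 5p arm. Over the 232 hairpins the log2 difference had a median of 0.33, a lower quartile of -2.23 and an upper quartile of 2.63. The difference was larger than in miR-10b in 3 hairpins and larger than in miR-10a in 34.

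Hairpins with a bright 5p arm are the nearer comparison, since a dim 5p arm leaves little room for a large difference in favour of the 5p arm. A 5p signal of 1000 or more was found in 25 hairpins with both arms named, and in 20 of these the 3p arm was detected too. Their median difference was 7.47, with quartiles of 6.19 and 9.64. Ordered from the largest difference, miR-10b was number 4 and miR-10a number 19 of these 20, and miR-196b, with its 3p arm at the total gene signal, was number 9. miR-10a was also the 1 hairpin of the 25 in which the 3p arm had a signal of 1000 or more. Both traits of miR-10a rest on the total over probes of miR-10a-3p that spread widely, as described further on. With the brightest probe of each arm its difference was 3.79, and with the dimmest 6.44. Ranks were not computed with single probes.

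**Figure D3:**
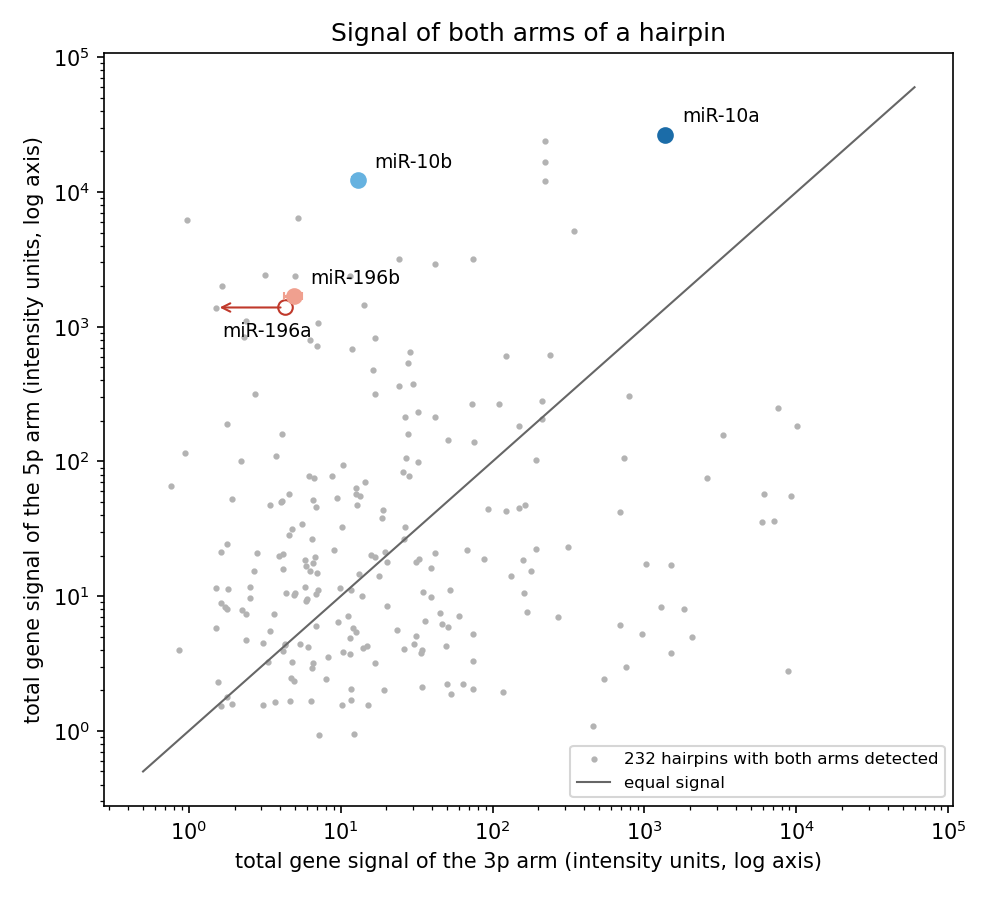
Total gene signal of the 5p arm against that of the 3p arm (intensity units, both axes logarithmic) for 232 hairpins with both arms detected in grey. The 4 member pairs of arms are in colour with the error of the software as bars. The line marks equal signal, and the open circle with an arrow is the bound for miR-196a, whose 3p arm was not detected. The 5p signal of miR-196a pools MIR196A1 and MIR196A2, and its 3p arm is that of MIR196A2. miR-10a lies far to the right of miR-10b at a similar height, with 3p signals of 1376 and 13.0.

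The probes of one member are assigned to the same RNA, so their spread shows how far a level depends on the probe. Of the 6 members with more than 1 probe above background, 5 had all their probe means within 1 of each other on the log2 scale, and the exception was miR-10a-3p. This was 1 of 6 members at 1 or more, beside 19.6% of 801 detected miRNAs with such probes. The probe means of miR-10a-3p were 739 ± 55.0, 2770 ± 135, 5650 ± 119 and 5883 ± 240 (SD, n = 5 spots each), so its dimmest probe lay 2.99 ± 0.05 (SE) below its brightest. The brightest pair of probes lay close together, and the dimmest stood apart from all others.

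Probes disagreed more often for miRNAs with 4 probes above background. Over the 57 such miRNAs the median difference was 1.17, and 9 of them, miR-10a-3p included, had a difference as large as that of miR-10a-3p or larger. With the brightest probe of each arm alone, the balance of miR-10a was 3.79 on the log2 scale. With the dimmest probe of each arm it was 6.44, against 10.12 for miR-10b, so the order of the miR-10 hairpins was the same with either choice.

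The guide arms gave closer probes. The means were 64162 ± 1381 and 81195 ± 3819 for miR-10a-5p, which is 0.34 ± 0.02 (SE) on the log2 scale, near the median of 0.35 over the 801 miRNAs. They were 29056 ± 759 (n = 10 spots) and 37769 ± 1054 (n = 9 spots) for miR-10b-5p, which is 0.38 ± 0.02 (SE). Every probe of miR-10a-5p was brighter than every probe of miR-10b-5p, and how far either set of probes binds the other miRNA was not tested.

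The probes of the miR-196 guides were interleaved. For miR-196a-5p the means were 2809 ± 104 and 4792 ± 235, and for miR-196b-5p they were 3756 ± 90.7 and 5446 ± 217 (SD, n = 10 spots each). The log2 difference between probes was 0.77 ± 0.03 (SE) for miR-196a-5p and 0.54 ± 0.02 (SE) for miR-196b-5p, larger than the difference of 0.28 between these miRNAs. With sequences 1 substitution apart, binding of miR-196a-5p to probes of miR-196b-5p, or the reverse, was not tested.

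Replicate spots of one probe varied little where the signal was high. The 12 member probes with a mean of 700 or more had coefficients of variation from 2.11% to 7.45%. The median was 8.74% over the 1943 probes of the array that were well above background. The means of those probes went down to 11.7, so the 2 sets were not matched for brightness. The highest value among members was 16.0%, for the dimmer probe of miR-10b-3p. The probes of miR-10b-3p had means of 44.9 ± 3.13 and 26.1 ± 4.19 (SD, n = 10 spots each), a log2 difference of 0.78 ± 0.08 (SE).

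Related miRNAs set these levels in context. miR-615 is another HOX-embedded hairpin, inside the spans of HOXC4 and HOXC5, and neither of its arms had a signal near that of the guides above. miR-615-5p was not detected, and miR-615-3p, known as its main product, had a total gene signal of 0.957 ± 0.260 and rank 1126. In none of its probes were at least 50% of spots well above background.

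miR-99a-5p, miR-99b-5p and miR-100-5p resemble miR-10a-5p displaced by 1 base, and are encoded outside the HOX clusters. They are shown because part of their sequence recurs in miR-10a-5p while the seed does not. Capitals mark the seed.
miR-99a-5p: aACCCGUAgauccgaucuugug
miR-99b-5p: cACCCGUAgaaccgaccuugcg
miR-100-5p: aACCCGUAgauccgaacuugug

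The longest run that miR-10a-5p shared was 11 bases with miR-100-5p, GUAGAUCCGAA, 10 bases with miR-99a-5p and 5 bases with miR-99b-5p. Their total gene signals followed the same order, 720 ± 60.1, 54.9 ± 4.71 and 8.38 ± 0.904. Each was far under the 26585 of miR-10a-5p. The probes of miR-100-5p and of miR-99a-5p lay 2.10 and 2.30 apart on the log2 scale, further than in any of the 6 members with more than 1 probe above background except miR-10a-3p. Whether miR-10a-5p adds to the signal of these probes was not tested.

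**Figure D4:**
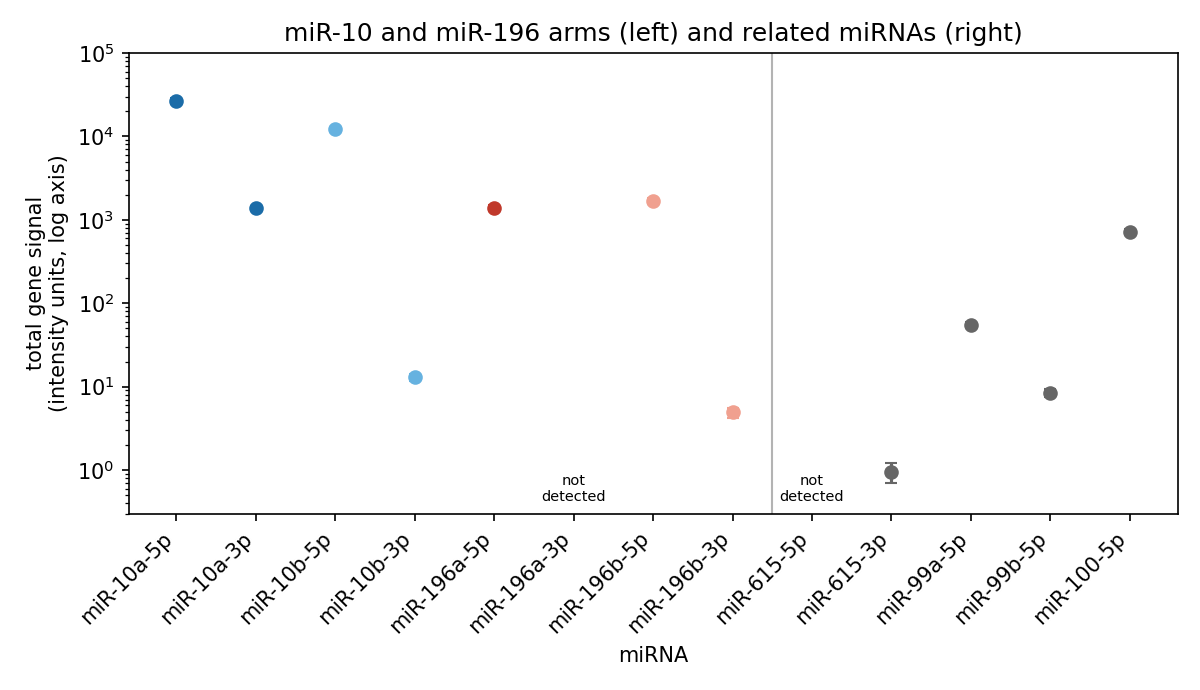
Total gene signal (intensity units, log axis) of the 8 members on the left and of the 5 related miRNAs on the right, with the error of the software as bars, which are smaller than the points for the brighter miRNAs. miR-196a-3p and miR-615-5p were not detected. The 4 guide arms of the members stand above every related miRNA, of which miR-100-5p is the brightest at 720.

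The labelled cell type was checked with miRNA markers. All 9 markers of colon and other epithelium were detected, with total gene signals from 52.2 to 9249 and a sum of 30361. Of 10 markers of other tissues 4 were detected, from 21.5 to 123 with a sum of 192, beside 44.4% of all 2549 miRNAs. These were miR-126-3p of vessel (123), miR-223-3p (25.4) and miR-451a (21.5) of blood, and the neural miR-9-5p (22.1). miR-126-3p was brighter than the dimmest epithelial marker, miR-375 at 52.2. The markers of liver and muscle, miR-122-5p, miR-1-3p and miR-133a-3p, were not detected. Neither were those of stroma, miR-143-3p and miR-145-5p, nor the neural miR-124-3p.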

How the data were processed

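Total RNA of DLD-1 cells with a negative control siRNA was measured on 1 Cy3 array. Labelling was by T4 RNA ligase per the labels and of cDNA in the methods of the study, and which was done is not settled here. Per the file headers, Feature Extraction 11.0.1.1 gave the deposited intensity of each spot, on a design for hg19. It is background-subtracted and not normalized between arrays. The deposited flags, scored 0 or 1, mark detected miRNAs, outliers, and spots well above background. The authors also deposited log2 values, quantile normalized in GeneSpring, whose floor is not stated and was read from the values. Of its columns, 0 belonged to other samples.

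Here the total gene signal and its error were used for levels, arms and paralogues, with errors propagated to the log2 scale. Spot means left out outlier spots. The precision is that of 1 array, and no depth exists beyond signal over background. Alternatives were other detection rules, mean log2 spot signal, normexp (offset 50, on the median spot signal because no mean is given), the deposited values, single probes, another reference percentile, outlier spots kept and no filter on dim probes. Python 3.11.15, numpy 2.4.6, pandas 2.3.3, matplotlib 3.10.9, R 4.3.3 and limma 3.58.1 were used, and the scripts were tested on simulated data. The rule for naming took all 8 members, 5 related miRNAs, and any array miRNA with the seed of a member. The members and lists were chosen with earlier results of these data known.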

Additional observations from a re-analysis of the deposited data

How the results depend on the processing

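No direction of an arm or paralogue difference changed under any alternative, and the count of detected members ranged from 6 to 7. Sizes moved, and all values here are log2 differences. For the arm difference (main values 4.27, 9.88, at least 8.34 and 8.42 for miR-10a, miR-10b, miR-196a and miR-196b), normexp gave 4.62, 8.46, 5.998 and 5.996. The deposited values gave 9.45 for miR-10b and bounds of 7.77 for miR-196a and 8.11 for miR-196b. The mean log2 spot signal gave 4.65 for miR-10a and 9.10 for miR-196b. The brightest probe of each arm gave 3.79 for miR-10a, at least 8.68 for miR-196a and 7.66 for miR-196b, and the dimmest gave 6.44 for miR-10a, 10.12 for miR-10b and at least 7.91 for miR-196a. Other arm values moved by less than their error. For miR-10a-3p minus miR-10b-3p (main 6.73) the mean log2 spot signal gave 6.40, normexp 5.00, the deposited values 6.27, the brightest probes 7.03 and the dimmest 4.82. The 5p paralogue differences moved by less than their error. The cause of these shifts was not tested. Set against the 75th percentile over detected miRNAs, miR-10b-3p lay at -2.07, and against that over all miRNA spots at 0.37, a change of reference for every miRNA alike. The mean log2 spot signal gave no value for miR-196a, since spots of its 3p arm were under 0. No paired analysis was possible because there was 1 sample. Signals near the negative control level, as in the 3p arms of miR-196, are bounds more than levels, and leaving out a replicate could not be done with 1 array.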
